A study of Mus musculus with 18 samples.

Results

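RNA-seq of cultured mouse lung cells was compared between 48 h and 24 h after withdrawal of a Wnt agonist, to ask what goes on changing between the first and the second day without it. The libraries were taken by their titles: 3 of 48 h withdrawal and 3 of 24 h withdrawal, 6 of the 18 libraries in the series. Before that, all cells had spent 19 days with CHIR99201 (the spelling in the labels; CHIR below), and both groups then received LGK974 alone, without CHIR. LGK974, an inhibitor of porcupine that stops cells from secreting Wnt ligands, was listed for every group of the series, so the 24 h cells carry it as well. The labels also give 8 to 12 h as the length of the treatments, without saying how that period relates to the 24 h and 48 h. Whether the replicates are separate cultures or animals is not stated; each p-value therefore reflects the spread among the libraries alone, and part or all of that spread may be technical. They name no strain, sex or age.

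Wnt ligands bind Frizzled and LRP receptors and keep beta-catenin from being degraded, and beta-catenin then drives target genes with TCF and LEF factors. CHIR compounds reach the same point inside the cell by inhibiting the kinase GSK3. In the lung alveolus, Wnt signalling maintains alveolar type 2 cells, which make surfactant and divide, and its loss is associated with their conversion to the flat alveolar type 1 cells of gas exchange.

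The label alveolar type 2 was checked against marker genes. All 21 type 2 markers had counts, and Sftpc alone, which encodes surfactant protein C, took 4.07% to 13.0% of the gene counts of a library. The type 1 markers were also present, with a summed level of 9097 to 13520 CPM (gene counts scaled to a common library size) against 95240 to 175400 CPM for the type 2 markers. Some defining markers of other cells had no count in any of the 6 libraries: Trp63, Krt5 and Krt14 (basal), Col1a2 and Col3a1 (mesenchymal), Cdh5, Pecam1 and Kdr (endothelial), and Adgre1 and Itgam (haematopoietic). Whole lists were not all at 0. Club and secretory markers summed to 196 to 1863 CPM, mostly Cyp2f2 and Hp, ciliated markers to 0.141 to 16.4 CPM, mostly Tppp3, and haematopoietic markers to 0.0705 to 8.60 CPM, mostly Cd68. Mesenchymal and endothelial markers summed to at most 0.390 and 0.326 CPM. The 6 libraries held 31509607 to 42304089 gene counts each, which puts a level of 3 counts at 0.0709 to 0.0952 CPM before scaling.

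The library 24 h replicate 2 stood apart from the other 5 before any comparison was made. Its median correlation with the other libraries of the series was 0.794, against 0.986 to 0.989 for the rest of the 6. It had 16846 genes with a count against 20247 to 21003, and 31.3% of its library total lay outside gene counts against 14.3% to 15.5%. Mitochondrially encoded genes took 4.13% of its counts against 0.445% to 0.622%, and the nuclear RNAs Malat1, Neat1 and Gm26917 took 10.8% against 0.421% to 0.583%. Reg3g and Scgb1a1, secreted products of airway epithelium, stood at 93.0 and 38.6 CPM in it, against 0 and 0.105 to 0.947 CPM in the other 5. Elsewhere in the series, CHIR replicate 3 and Fzd6 agonist replicate 1 also held Reg3g (26.5 and 208 CPM) and Scgb1a1 (50.8 and 79.8 CPM). Xist, the RNA of the inactive X chromosome, stood at 0.141 CPM in 24 h replicate 2 against 6.98 to 11.03 in the other 5, and the Y-linked gene Ddx3y at 75.8 against 36.6 to 42.5. CHIR replicate 3 and Fzd6 agonist replicate 1 were alike in this, with Xist at 0.0235 and 0 CPM and Ddx3y at 62.7 and 72.9 CPM. The number of genes called is therefore given with this library and without it. Fold changes, means and list counts below leave it out unless all 6 libraries are named. Its own level is given for many genes, but not for all.

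With all 6 libraries, edgeR's quasi-likelihood test called no gene at an adjusted p under 0.05 (0% of 14990 tested). At an unadjusted p under 0.05 there were 834 genes, and the lowest adjusted p was 0.347. On the same libraries DESeq2 called 271 genes, 151 higher and 120 lower at 48 h, and limma voom with a quality weight for each library called 2901. Without 24 h replicate 2, edgeR tested 15365 genes and called 3181 (20.7%). Of these, 1690 (11%) were higher at 48 h and 1491 (9.7%) were lower, and the median log2 fold change of all genes tested was 0.004. Most changes were small: 584 of the 3181 had a log2 fold change of at least 1 in either direction, 296 higher and 288 lower, and the median size was 0.53. Counts of members called, below, are read against these shares. The gene lists were chosen with earlier results of these data known, so a count above a share may partly follow from that choice. The words "higher" and "lower" always refer to 48 h relative to 24 h in the 5 libraries unless all 6 are named.

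These calls rest on the spread among 5 libraries. In a fit of 17 libraries, all groups of the series without 24 h replicate 2, the call remained for 21 genes only (12 higher, 9 lower). That fit holds CHIR and Fzd6 agonist libraries that differ within their groups. With 3 such libraries left out as well (CHIR replicates 1 and 3 and Fzd6 agonist replicate 1, chosen from earlier results of these data), 14 libraries gave 3136 calls, and 2781 of the 3181 genes were called with the same sign. Leaving out 48 h replicate 3 gave 2008 calls and leaving out 24 h replicate 1 gave 1980. In 24 h replicate 2 itself, 62.9% of the genes called higher lay below all 3 libraries of 48 h, against 53.8% of all genes with a positive fitted change. Of the genes called lower, 40.0% lay above all of them, against 43.4% of all genes with a negative fitted change. Statements below on the side where 24 h replicate 2 lies are read against these shares.

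**Figure D1:**
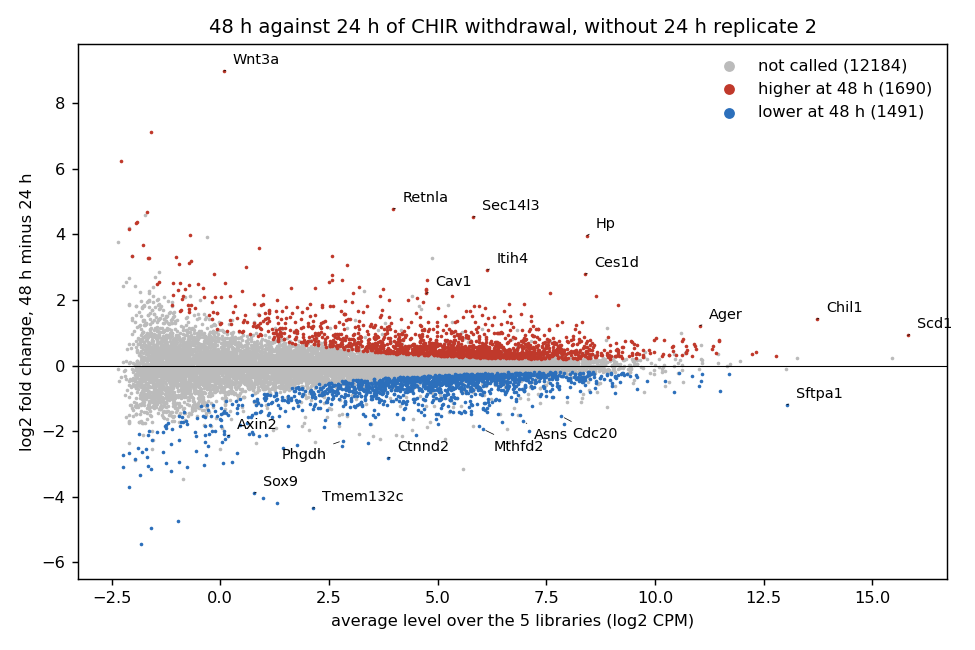
Log2 fold change, 48 h minus 24 h, against the average level in log2 CPM for the 15365 genes tested without 24 h replicate 2. Each point is a gene; 1690 called higher are red, 1491 called lower are blue and the rest are grey. Tmem132c lies at -4.34 and Hp at 3.96; the fitted value of Wnt3a, which had no count at 24 h, depends on the model and is no measured fold.

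Genes of amino acid supply were lower at 48 h. ATF4 is a transcription factor made when amino acids run short or unfolded protein accumulates, and it drives genes for amino acid synthesis, uptake and tRNA charging. Of 12 genes for serine, glycine, proline and one-carbon synthesis tested, 10 were lower at 48 h and 0 higher, with a median log2 fold change of -1.49. Of 20 aminoacyl-tRNA synthetases, the enzymes that load amino acids onto tRNA, 18 were lower and 1 (Qars) higher, with a median of -0.67. Of 19 ATF4 targets and integrated stress response genes, 7 were lower and none higher. All 19 were fitted below 0, with a median of -1.22.

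Asns, asparagine synthetase, had 69.2, 61.2 and 63.1 CPM in the 48 h libraries. It had 222 and 206 CPM in 24 h replicates 1 and 3, and 201 CPM in 24 h replicate 2. All 3 libraries of 24 h, the one that stands apart included, lay above all 3 of 48 h. That library did so for 40.0% of all genes called lower. The log2 fold change of Asns was -1.70 ± 0.08 (SE) without 24 h replicate 2 (edgeR adjusted p = 7.15e-07) and -1.69 with all 6 (adjusted p = 0.347). Phgdh, the first enzyme of serine synthesis from glycolysis, had 2.58, 2.70 and 2.84 CPM at 48 h against 13.8 and 13.1 at 24 h, and 13.1 in 24 h replicate 2. Its log2 fold change was -2.29 ± 0.15 (adjusted p = 7.93e-06). Mthfd2, a mitochondrial one-carbon enzyme, had 34.1, 27.1 and 29.9 CPM at 48 h and 128 and 109 at 24 h, with 184 in 24 h replicate 2 (log2 -1.93 ± 0.11, adjusted p = 4.38e-06). Phgdh and Mthfd2 were named among the largest falls, which required no overlap in the 5 libraries. For both, 24 h replicate 2 also lay above all 48 h libraries.

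The next enzymes of the same routes moved alike, though 24 h replicate 2 did not always side with its group. Psat1, which follows Phgdh in serine synthesis, averaged 46.6 ± 5.20 CPM (SD, n = 3) at 48 h and 155 ± 7.04 (n = 2) at 24 h, with 63.4 in 24 h replicate 2. Shmt2, which splits serine into glycine and a one-carbon unit in mitochondria, averaged 48.2 ± 3.54 and 138 ± 0.352 CPM, with 146 in that library. Aldh18a1, which starts proline synthesis, averaged 60.3 ± 0.953 and 173 ± 0.991 CPM, with 50.1 in that library, below all 48 h libraries. Aldh1l2, a mitochondrial folate enzyme, averaged 16.1 ± 3.90 and 56.7 ± 12.9 CPM, with 8.35 there. The log2 fold changes of these genes ran from -1.79 (Aldh1l2) to -1.49 (Shmt2, Aldh18a1), and Psat1 was also among the 21 genes called in the 17-library fit.

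The ATF4 list split by spread. Atf4 itself had 87.0, 73.3 and 73.4 CPM at 48 h and 193 and 131 at 24 h, with 447 in 24 h replicate 2 (log2 -1.03 ± 0.18, edgeR adjusted p = 0.0146). Slc7a5, the light chain of a transporter for large neutral amino acids, averaged 67.4 ± 6.66 CPM at 48 h and 195 ± 8.15 at 24 h. Cth, which makes cysteine from cystathionine, averaged 0.688 ± 0.291 and 3.05 ± 0.647 CPM, and Atf5 averaged 1.36 ± 0.145 and 3.12 ± 0.898 CPM, with 92.4 in 24 h replicate 2. The call on Atf5 was lost without 24 h replicate 1 (adjusted p = 0.127). Trib3, Chac1 and Slc7a11 had large fitted changes (-1.86, -2.14 and -1.89) and missed the threshold, with adjusted p of 0.166, 0.0942 and 0.221. Trib3, a pseudokinase that feeds back on ATF4, ranged from 13.9 to 37.3 CPM at 48 h and was 138 and 62.1 at 24 h. The number of list members called lower depended on the setting: 13 under DESeq2 and under voom with quality weights, and 4 without 24 h replicate 1.

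Among the synthetases, Nars (asparagine) had 141, 144 and 142 CPM at 48 h and 297 and 267 at 24 h, with 374 in 24 h replicate 2. Cars (cysteine) averaged 56.2 ± 4.33 CPM at 48 h and 116 ± 10.5 at 24 h, and Yars (tyrosine) 84.5 ± 3.62 and 160 ± 9.30. Vars (valine) averaged 182 ± 10.5 and 357 ± 12.1 CPM. The summed level of the 20 synthetases with counts was 2040 to 2130 CPM at 48 h and 3472 and 3319 at 24 h. At 3229 CPM, 24 h replicate 2 lay with its group. Qars (glutamine) went the other way, 63.0 ± 1.1 against 53.8 ± 2.52 CPM (log2 0.26, adjusted p = 0.0377), and its call was lost when any 1 library was left out and in the 14-library fit.

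The promoters of these lists were searched for the letters of a C/EBP-ATF response element, the kind of element ATF4 binds with C/EBP partners. The motif was TGATGNAA on either strand, which reads TTNCATCA on the reverse, in RefSeq promoters of 250 bases before to 50 after a start (GRCm38.p6). It was in 1304 of 32851 promoters (3.97%), in 2.71% of genes tested, 3.33% of those called higher and 3.26% of those called lower. It was in 7 of 16 ATF4 list genes with a promoter in the set (43.8%; Trib3, Asns, Chac1, Atf3, Vldlr, Nupr1 and Slc7a11). It was in 5 of 13 synthetases (38.5%; Aars, Gars, Iars, Tars and Yars) and in 1 of 11 serine and one-carbon genes (Pycr1). The ATF4 list was made of ATF4 targets and stress response genes, and ATF4 also drives genes of tRNA charging. A high share in either list therefore does not bear on the change at 48 h. Trib3, Chac1 and Slc7a11 held the motif and were not called. A match is a description of the letters and not a binding site. The 120 bases before the start are shown for the 4 called genes of these lists whose only match lies there, to show where it sits. The match begins 23 bases before the start in Asns, 103 in Pycr1, 30 in Gars and 15 in Tars. Each runs 5′ to 3′ on the strand of its gene, with the match in capitals: Asns at chr6:7693210-7693329 (minus strand), Pycr1 at chr11:120643749-120643868 (minus), Gars at chr6:55037881-55038000 (plus) and Tars at chr15:11399659-11399778 (minus).
Asns: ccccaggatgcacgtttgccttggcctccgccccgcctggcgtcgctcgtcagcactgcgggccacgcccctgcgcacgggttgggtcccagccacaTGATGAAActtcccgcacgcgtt
Pycr1: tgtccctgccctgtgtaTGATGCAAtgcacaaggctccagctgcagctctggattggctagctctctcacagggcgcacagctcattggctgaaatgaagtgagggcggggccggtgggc
Gars: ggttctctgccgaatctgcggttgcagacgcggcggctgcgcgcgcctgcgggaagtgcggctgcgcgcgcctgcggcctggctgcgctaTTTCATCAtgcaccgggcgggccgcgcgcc
Tars: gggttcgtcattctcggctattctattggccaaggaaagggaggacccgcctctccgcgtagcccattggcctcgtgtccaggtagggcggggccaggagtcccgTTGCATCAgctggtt

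Of the genes shown beside Asns, Pycr1, which completes proline synthesis, had 11.1, 6.82 and 10.9 CPM at 48 h and 30.3 and 23.9 at 24 h, with 44.1 in 24 h replicate 2. Gars (glycine) averaged 177 ± 6.19 CPM at 48 h and 282 ± 0.185 at 24 h, and Tars (threonine) 84.9 ± 5.92 and 152 ± 1.36. Each of these 3 genes was lower at 48 h, with log2 fold changes of -1.47 ± 0.22, -0.65 ± 0.06 and -0.81 ± 0.07 (edgeR adjusted p = 0.00301, 8.40e-05 and 5.13e-05).

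Chaperones of the endoplasmic reticulum, which fold secreted proteins, were lower as a group: 14 of 17 tested were called lower and none higher, with a median log2 fold change of -0.50 (-0.17 with all 6 libraries). Hspa5, the main chaperone of that compartment, had 1046, 1038 and 1053 CPM at 48 h and 1844 and 1907 at 24 h. Its log2 fold change was -0.82 ± 0.06 (edgeR adjusted p = 1.44e-05). Calr averaged 406 ± 19.1 CPM at 48 h and 732 ± 20.2 at 24 h, and Hsp90b1 603 ± 13.5 and 1011 ± 60.2. In 24 h replicate 2 the group was below the 48 h libraries: its summed level was 2181 CPM, against 5238 to 5305 at 48 h and 7877 and 8024 in the other 24 h libraries. Bhlha15, a transcription factor of secretory cells, had 2.60, 2.94 and 1.76 CPM at 48 h and 14.6 and 12.7 at 24 h, and was at 0 in 24 h replicate 2 (log2 -2.46 ± 0.20, adjusted p = 2.88e-05).

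Ribosome assembly followed. Of 22 genes for ribosome biogenesis and RNA modification, 15 were lower and none higher, with a median of -0.45. Mettl1, which methylates tRNA, had 3.52, 4.33 and 5.16 CPM at 48 h and 11.7 and 12.8 at 24 h, with 22.8 in 24 h replicate 2 (log2 -1.48 ± 0.18, edgeR adjusted p = 0.000248). It was also called in the 17-library fit. Ncl, nucleolin, averaged 235 ± 10.3 CPM at 48 h and 349 ± 0.0158 at 24 h, and Mybbp1a 99.2 ± 6.29 and 168 ± 12.5. Summed levels were 823 to 900 CPM at 48 h and 1226 and 1277 at 24 h, and 24 h replicate 2 lay near its group at 1199. Genes of this list with processed copies elsewhere in the genome, such as Npm1 and Fbl, stood at only 12.3 and 1.61 CPM at 24 h. How the authors' counting treated reads that match several copies is not given in the sources used here, so such genes are uncertain.

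Proliferation genes were lower at 48 h. All 21 mitosis and G2/M genes tested were called lower, with a median log2 fold change of -1.18, as were 16 of 22 DNA replication and G1/S genes, with a median of -0.53; none was higher. In bulk RNA, fewer dividing cells and less of these RNAs per cell cannot be told apart. Mki67, a marker of cycling cells, had 51.2, 64.8 and 60.7 CPM at 48 h and 104 and 146 at 24 h (log2 -1.06 ± 0.16, edgeR adjusted p = 0.00448). Cdc20, which activates the anaphase ligase, had 108, 130 and 147 CPM at 48 h and 376 and 383 at 24 h (log2 -1.54 ± 0.11, adjusted p = 3.67e-05). Bub1, a spindle checkpoint kinase, averaged 31.5 ± 4.48 CPM at 48 h and 88.7 ± 8.94 at 24 h, and Aurka, a spindle pole kinase, 36.0 ± 4.87 and 84.2 ± 5.22. Cenpf, a kinetochore protein, averaged 23.3 ± 2.23 and 62.3 ± 12.2 CPM.

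The replication genes called had smaller fold changes at these examples. Mcm3 and Mcm5, subunits of the replicative helicase, averaged 50.5 ± 5.49 and 35.9 ± 4.68 CPM at 48 h, against 90.3 ± 6.90 and 58.7 ± 1.96 at 24 h. Rrm1 and Rrm2, subunits of ribonucleotide reductase, averaged 104 ± 7.48 and 68.8 ± 7.30 CPM against 166 ± 16.0 and 107 ± 14.2. In the mitosis list, summed levels were 677 to 895 CPM at 48 h, 1813 and 2059 in 24 h replicates 1 and 3, and 201 in 24 h replicate 2, below every 48 h library. With that library included, the median of the mitosis list was -0.67 and that of the replication list -0.10. Without 24 h replicate 1 or without 24 h replicate 3, 19 of the 21 mitosis genes were called. Without 24 h replicate 3, only 8 replication genes were.

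**Figure D2:**
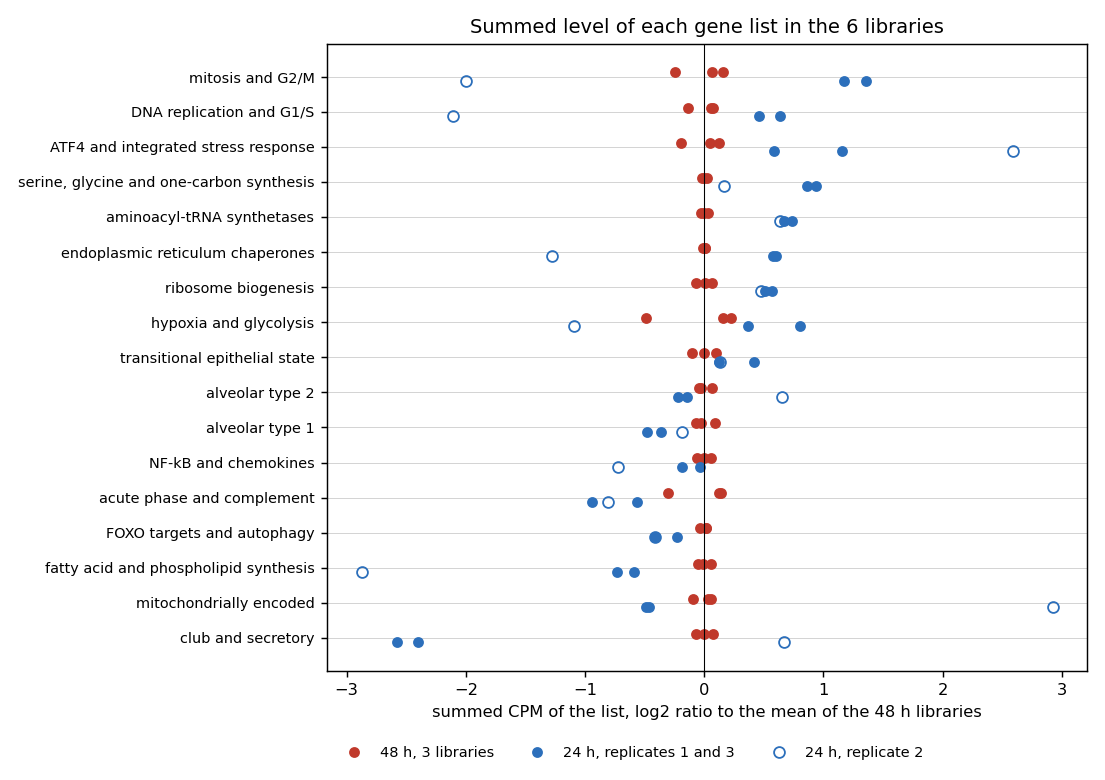
Summed CPM of 17 gene lists in each library, as the log2 ratio to the mean of the 3 libraries of 48 h (red points near 0); filled blue points are 24 h replicates 1 and 3 and open circles 24 h replicate 2. For mitosis and G2/M genes the filled 24 h points lie above the 48 h points (1813 and 2059 CPM against 677 to 895) and the open circle below (201 CPM).

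Alveolar type 1 markers were higher at 48 h. Of 15 tested (of 17 listed), 11 were called higher and none lower, with a median log2 fold change of 0.90. Ager, a receptor abundant on type 1 cells, had 2666, 2828 and 2541 CPM at 48 h and 1189 and 1166 at 24 h. In 24 h replicate 2 it was at 3840, above all 48 h libraries. The log2 fold change was 1.21 ± 0.07 without that library (edgeR adjusted p = 3.89e-06) and 0.39 with it (adjusted p = 0.818). Hopx, a transcriptional cofactor of type 1 cells, had 266, 232 and 220 CPM at 48 h, 129 and 95.5 at 24 h and 147 in 24 h replicate 2, so that all 24 h libraries lay below all 48 h libraries (log2 1.12 ± 0.15, adjusted p = 0.00238). Cav1, caveolin 1, had 44.7, 40.7 and 29.4 CPM at 48 h and 9.46 and 7.49 at 24 h, with no count in 24 h replicate 2 (log2 2.20 ± 0.21, adjusted p = 0.000287).

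Clic5, Cryab and Cldn18 lay lower in every 24 h library than in every 48 h library, 24 h replicate 2 included. That library lay below all 48 h libraries for 62.9% of all genes called higher. Clic5, a chloride channel protein, averaged 360 ± 44.9 CPM at 48 h and 169 ± 3.16 at 24 h, with 31.3 in that library. Cryab, a small heat shock protein, averaged 81.9 ± 8.45 and 42.7 ± 1.98 CPM, with 42.9 in that library. Cldn18, the main claudin of the alveolus, averaged 1401 ± 202 and 834 ± 91.5 CPM, with 54.5 there. Col4a4, a basement membrane collagen chain, averaged 30.2 ± 4.29 and 16.5 ± 0.831 CPM, and 24 h replicate 2, at 31.6, lay among the 48 h libraries. In the 14-library fit 6 type 1 markers were called higher, and Cldn18 (adjusted p = 0.105) and Col4a4 (adjusted p = 0.183) were not among them. Caveolin and basement membrane genes did not move as a group: 6 of 15 were higher (Cav1, Cav2, Cavin2, Col4a3, Col4a4 and Lama3) and 2 lower, with a median of 0.02. Leaving out any 1 library other than 48 h replicate 2 brought the 6 down to 3. Lama5, which encodes a laminin chain, was among the lower ones, with 176 ± 9.87 against 231 ± 4.71 CPM.

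Alveolar type 2 markers went both ways. Of 21 tested, 8 were higher and 3 lower, with a median of 0.24. Sftpc had 45180, 51930 and 43120 CPM at 48 h and 41610 and 38860 at 24 h, and 144800 in 24 h replicate 2. It was not called: the log2 fold change was 0.24 ± 0.09 without that library (edgeR adjusted p = 0.0794) and -0.67 with it (adjusted p = 0.731). Chil1, a chitinase-like secreted protein, had 17780, 18110 and 17330 CPM at 48 h and 6931 and 6614 at 24 h, with 3919 in 24 h replicate 2. All 24 h libraries lay below all 48 h libraries, and the log2 fold change was 1.41 ± 0.07 (adjusted p = 1.28e-06). S100g, a calcium-binding protein, averaged 85.6 ± 9.38 CPM at 48 h and 24.6 ± 3.53 at 24 h, with 86.6 in that library.

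The 3 type 2 markers that fell were Sftpa1, Ctsh and Etv5. Sftpa1, which encodes surfactant protein A, had 5031, 6097 and 5229 CPM at 48 h and 13070 and 12330 at 24 h, with 3059 in 24 h replicate 2 (log2 -1.20 ± 0.09, edgeR adjusted p = 1.29e-05). Ctsh, a cathepsin that processes surfactant protein B, averaged 2217 ± 139 and 3833 ± 361 CPM. Etv5, a transcription factor downstream of FGF and ERK signalling, had 145, 136 and 148 CPM at 48 h and 272 and 295 at 24 h, with 28.2 in 24 h replicate 2. Lyz1 and Lyz2, neighbouring genes with similar sequence, went apart, with Lyz2 called higher (1199 ± 55.0 against 706 ± 7.51 CPM) and Lyz1 not called (302 ± 101 against 740 ± 274). How the authors' counting splits reads between them is not given in the sources used here.

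**Figure D3:**
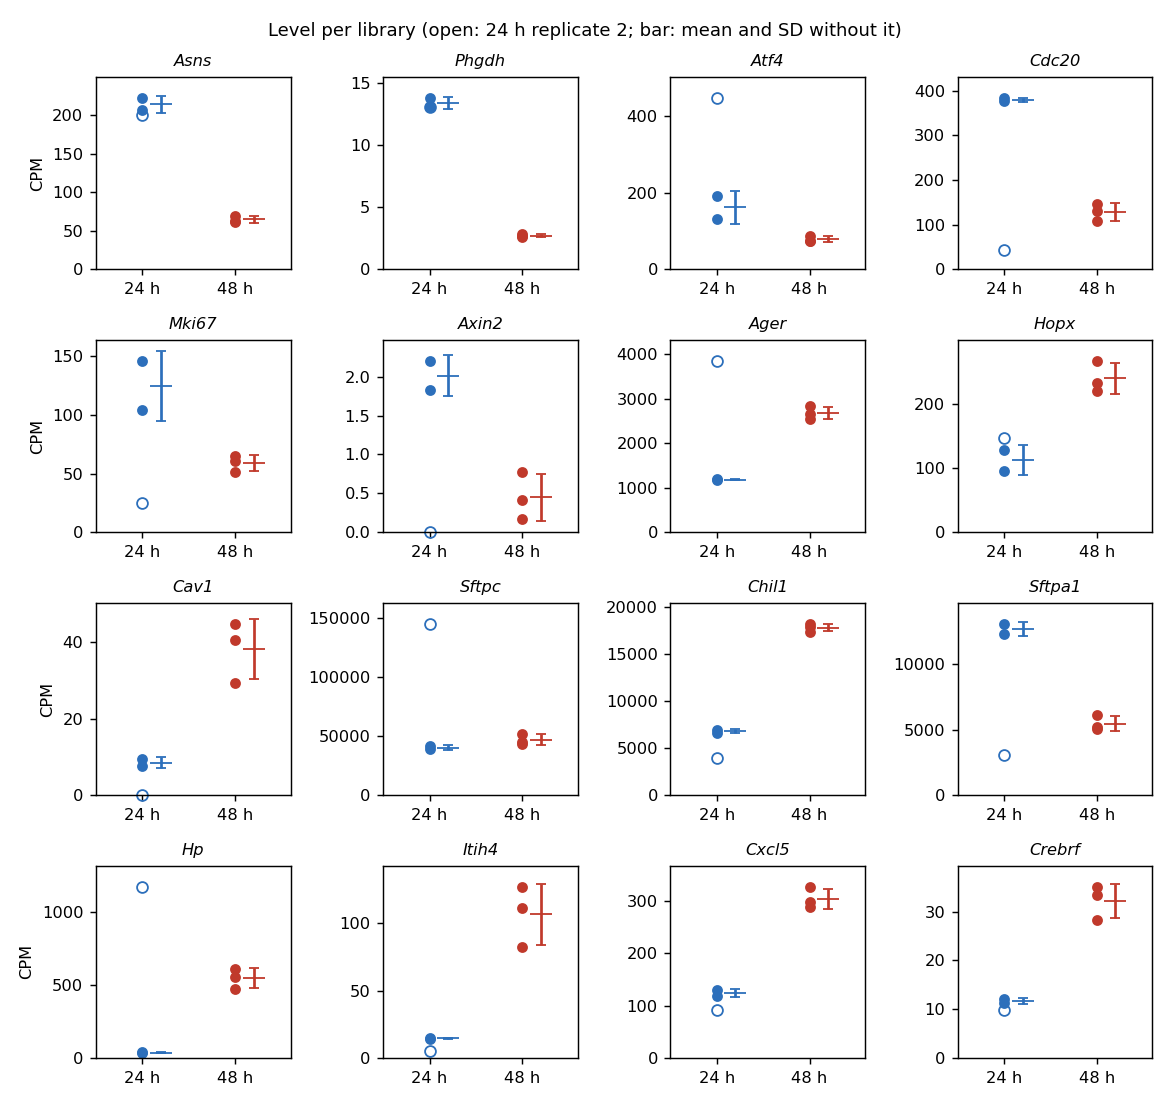
Level in CPM (linear axes from 0) of 16 genes in each library at 24 h (blue) and 48 h (red); open circles are 24 h replicate 2, and bars give the mean and SD without it. Asns in 24 h replicate 2 (201 CPM) lies with its group, whereas Cdc20 (42.9 CPM) and Ager (3840 CPM) lie beyond the 48 h libraries.

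The transitional epithelial state is one through which type 2 cells pass on the way to type 1. Of its 16 genes tested, 5 were lower (Krt8, Krt18, Sfn, Hbegf and Tnip3) and none higher, with a median of -0.46. Krt8, its best known keratin, had 146, 120 and 146 CPM at 48 h and 270 and 212 at 24 h, with 123 in 24 h replicate 2 (log2 -0.79 ± 0.13, edgeR adjusted p = 0.00465). Krt18, its partner, averaged 430 ± 20.2 and 633 ± 88.2 CPM. The calls on Hbegf and Tnip3 were lost in at least 1 omission of a library (highest adjusted p = 0.108 and 0.249). Cldn4 and Cdkn1a, with fitted changes of -1.25 and -1.14, missed the threshold. Of 15 feedback genes of FGF and ERK signalling, 5 were lower (Dusp4, Dusp5, Etv4, Etv5 and Phlda1) and none higher, with a median of -0.07. Dusp4 and Dusp5 lost their calls in at least 1 omission of a library (highest edgeR adjusted p = 0.232 and 0.1505). Phlda1 averaged 142 ± 14.4 CPM at 48 h and 225 ± 9.69 at 24 h.

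Of the canonical Wnt targets tested, 35.3% were called lower, above the 9.7% of all genes. The 11.8% called higher lay near the 11% of all genes. Of 22 listed, 17 had enough counts to be tested: 6 were lower (Axin2, Lgr5, Sox9, Myc, Ccnd1 and Rnf43) and 2 higher (Bambi and Ephb3), with a median of -0.38 (0.01 with all 6 libraries). Without 24 h replicate 1, 3 were called lower. Axin2, a feedback inhibitor in the beta-catenin destruction complex, had 0.413, 0.771 and 0.167 CPM at 48 h and 2.20 and 1.83 at 24 h, and no count in 24 h replicate 2. The log2 fold change was -2.14 ± 0.47 (edgeR adjusted p = 0.00961), and the call was lost without 24 h replicate 1 (adjusted p = 0.0694). Lgr5, a receptor for R-spondins, had no count in 48 h replicates 1 and 2 and 0.112 CPM in 48 h replicate 3. It had 1.17 and 0.995 CPM at 24 h and no count in 24 h replicate 2 (adjusted p = 0.00243). Sox9, a transcription factor of lung tip progenitors, had 0.486, 0.0297 and 0.195 CPM at 48 h and 4.65 and 2.93 at 24 h, with 0.916 in 24 h replicate 2 (log2 -3.89 ± 0.60, adjusted p = 0.00435).

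Myc went down as well, whereas Bambi and Nkd1 did not. Myc had 22.4, 19.6 and 22.1 CPM at 48 h and 34.7 and 29.3 at 24 h (log2 -0.56 ± 0.11), with 70.1 in 24 h replicate 2, and its call was lost without 24 h replicate 1 (edgeR adjusted p = 0.0631). Bambi, a pseudoreceptor that dampens TGF beta and BMP signalling, had 31.4, 30.0 and 32.2 CPM at 48 h and 15.8 and 14.1 at 24 h, with 17.4 in 24 h replicate 2 (log2 1.09 ± 0.11, adjusted p = 8.14e-05). Nkd1, an inhibitor of Dishevelled, had 67.8, 30.6 and 57.2 CPM at 48 h, 27.9 and 14 at 24 h and 26.6 in 24 h replicate 2. Although every 48 h value lay above every 24 h value, Nkd1 was not called by edgeR (log2 1.34 ± 0.56, adjusted p = 0.222); DESeq2 gave an adjusted p of 0.0493 and voom with quality weights 0.0260.

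Of 10 ligand and secretion genes tested (of 21 listed), 4 were higher (Wnt3a, Wnt4, Wnt9a and Wls) and 1 lower (Wnt7b). Wnt3a had no count in any 24 h library and 1.02, 2.94 and 1.14 CPM at 48 h. Against a floor of 3 counts per library in 24 h replicates 1 and 3, its mean level was at least 21.0-fold higher at 48 h (edgeR adjusted p = 0.00195), and at least 13.4-fold higher without 48 h replicate 2. Wnt4 had 23.7, 23.2 and 23.0 CPM at 48 h and 12.8 and 12.3 at 24 h, but 81.1 in 24 h replicate 2 (log2 0.92 ± 0.11, adjusted p = 0.000222). Wls, the carrier of Wnt ligands to the cell surface, averaged 619 ± 62.4 CPM at 48 h and 471 ± 13.0 at 24 h. Wnt7b averaged 15.4 ± 1.80 and 20.8 ± 0.303 CPM, and its call was lost in 4 of the 5 omissions of 1 library (highest adjusted p = 0.140), while Wnt9a lost its call in all 5 (highest 0.178).

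Of 16 Wnt receptors and co-receptors, 3 were higher (Fzd3, Fzd7 and Fzd8) and 2 lower (Lrp5 and Lgr5), near the shares of all genes, with a median of 0.16. Fzd8 had 30.9, 36.3 and 30.7 CPM at 48 h and 18.2 and 17.7 at 24 h, with 6.06 in 24 h replicate 2 (log2 0.89 ± 0.11, edgeR adjusted p = 0.000327). Lrp5, a co-receptor of Frizzled, averaged 14.6 ± 2.74 CPM at 48 h and 25.7 ± 3.56 at 24 h, with 2.40 in 24 h replicate 2, and lost its call without 24 h replicate 1 (adjusted p = 0.0645). The receptors targeted by agonists elsewhere in the series, Fzd5 and Fzd6, were not called, with 10.6 ± 1.15 against 8.84 ± 0.135 CPM and 77.6 ± 5.16 against 70.8 ± 7.77 CPM (adjusted p = 0.201 and 0.250).

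Acute phase and complement genes, which epithelia make in inflammation, were higher at 48 h. Of 12 tested (of 20 listed), 9 were called higher and none lower, with a median log2 fold change of 1.01. Hp, haptoglobin, had 609, 473 and 555 CPM at 48 h and 37.7 and 33.6 at 24 h, but 1168 in 24 h replicate 2. Its log2 fold change was 3.96 ± 0.13 without that library (edgeR adjusted p = 7.15e-07) and 0.41 with it (adjusted p = 0.915). Itih4, an acute phase plasma protein, had 127, 82.1 and 112 CPM at 48 h and 14.6 and 14.3 at 24 h, with 4.97 in 24 h replicate 2, so that the groups did not overlap with any library (log2 2.91 ± 0.21, adjusted p = 0.000362). C3, the central complement protein, had 424, 407 and 417 CPM at 48 h and 161 and 177 at 24 h, with 89.0 in that library (log2 1.33 ± 0.07, adjusted p = 1.93e-06). Cfb and Lbp, complement factor B and a carrier of lipopolysaccharide, averaged 20.2 ± 1.56 and 178 ± 11.2 CPM at 48 h and 10.01 ± 0.692 and 110 ± 12.2 at 24 h. Itih4 and Cfb were among the 21 genes called in the 17-library fit.

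NF-kB is a transcription factor of inflammatory signalling whose targets include chemokines and its own inhibitors. Of 18 genes of this list tested, 11 were higher and 1 (the chemokine Cxcl15) lower, with a median of 0.64 (0.09 with all 6 libraries). Cxcl5, a chemokine that attracts neutrophils, had 288, 326 and 297 CPM at 48 h and 118 and 129 at 24 h, with 90.8 in 24 h replicate 2 (log2 1.32 ± 0.08, edgeR adjusted p = 3.96e-06). It was also called in the 17-library fit. Cxcl1, another neutrophil chemokine, averaged 25.2 ± 1.98 CPM at 48 h and 11.5 ± 1.30 at 24 h. Tnfaip3 and Birc3 averaged 55.3 ± 0.374 and 95.9 ± 4.27 CPM at 48 h and 33.1 ± 4.01 and 59.1 ± 1.597 at 24 h. Tnfaip3 encodes an inhibitor of NF-kB and Birc3 an inhibitor of apoptosis. Of 17 interferon response genes, 3 (Irf1, Ifit3 and Gbp2) were higher and 1 (Bst2) lower. The calls on Irf1, Ifit3 and Gbp2 were lost in at least 1 omission of a library (highest edgeR adjusted p = 0.225, 0.0672 and 0.0610). Of 15 antigen presentation genes, 3 (Cd74, Tapbp and Psmb8) were higher and none lower. Psmb8 kept its call in 1 of the 5 omissions of 1 library (highest edgeR adjusted p = 0.132). Cd74, the invariant chain of MHC class II, averaged 1561 ± 31.6 CPM at 48 h and 1060 ± 17.7 at 24 h.

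FOXO factors switch on catabolic and autophagy genes when growth factor signalling is low. Of 18 such genes tested, 12 were higher and 1 (Foxo3) lower, with a median of 0.47. Crebrf, a regulator of nutrient stress responses, had 33.4, 35.0 and 28.2 CPM at 48 h and 12.2 and 11.2 at 24 h, with 9.93 in 24 h replicate 2 (log2 1.49 ± 0.13, edgeR adjusted p = 3.03e-05). It was called in the 17-library fit too. Txnip, an inhibitor of thioredoxin and of glucose uptake, averaged 96.7 ± 11.5 CPM at 48 h and 42.2 ± 5.0 at 24 h, with 17.7 in that library. Fbxo32, a ubiquitin ligase of atrophy, had 10.3, 10.4 and 10.2 CPM at 48 h and 4.23 and 3.59 at 24 h, with 3.70 in that library (log2 1.42 ± 0.16, adjusted p = 0.000163). Map1lc3b, an autophagosome protein, averaged 298 ± 20.7 and 182 ± 2.07 CPM. For all 4 genes, every 24 h library lay below every 48 h library. In 24 h replicate 2, 62.9% of all genes called higher lay below all 3 libraries of 48 h.

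Lipid and ion transport genes of the alveolar epithelium changed in part. Of 20 fatty acid and phospholipid synthesis genes, 8 were higher and 1 (Fasn) lower, with a median of 0.19 (0.48 with all 6 libraries). Scd1, which desaturates fatty acids, had 73230, 67780 and 69010 CPM at 48 h and 35020 and 40450 at 24 h, with 5260 in 24 h replicate 2 (log2 0.92 ± 0.08, edgeR adjusted p = 4.28e-05). Fads1 and Fads2, which desaturate longer chains, averaged 402 ± 19.4 and 139 ± 5.33 CPM at 48 h and 298 ± 3.32 and 94.4 ± 4.03 at 24 h. Cholesterol synthesis genes lay near the shares of all genes, with 3 of 23 higher and 1 lower and a median of -0.02. Among those higher, Hmgcs1 and Nsdhl lost their calls in at least 1 omission of a library.

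Of 16 claudins and ion transport genes, 6 were higher and 2 (Cldn7 and Tjp1) lower. The 3 subunits of the epithelial sodium channel, through which the alveolus clears fluid, were all higher. Scnn1b had 31.5, 33.3 and 32.8 CPM at 48 h and 7.90 and 8.04 at 24 h, with 31.1 in 24 h replicate 2 (log2 2.06 ± 0.11, edgeR adjusted p = 1.93e-06). Scnn1a averaged 213 ± 15.0 CPM at 48 h and 140 ± 3.09 at 24 h, and Scnn1g 105 ± 21.7 and 38.5 ± 7.85, which lost its call without 24 h replicate 1 (adjusted p = 0.0790). Atp1b1, the beta subunit of the sodium pump, averaged 1891 ± 36.0 and 1395 ± 35.6 CPM.

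Several lists held changes in few members. BMP targets had 2 of 10 higher (Bambi and Smad9), TGF beta targets 2 of 13 higher (Tgfb1 and Pmepa1) and 1 lower (Ccn2), YAP and TEAD targets 2 of 14 lower (Ccn2 and Crim1) and Notch genes 2 of 10 higher (Sox4 and Dll4) and 1 lower (Jag1). Of 16 p53 targets, Trp53inp1, Btg2 and Bbc3 were higher and Gdf15 lower. Gdf15, a secreted stress signal, had 5.37, 4.95 and 6.52 CPM at 48 h and 17.4 and 14.5 at 24 h, with 154 in 24 h replicate 2 (log2 -1.48 ± 0.16, edgeR adjusted p = 0.000144). Immediate early and heat shock genes had 2 of 13 higher (Jund and Ier2) and 1 lower (Hsp90aa1). Among the genes of these lists, the calls were lost in at least 1 omission of a library for Smad9, Ccn2, Crim1, Dll4, Jag1, Jund, Ier2 and Hsp90aa1. Without 48 h replicate 3 or without 24 h replicate 1, no YAP and TEAD target was called lower. Mitochondrially encoded genes had 7 of 10 higher, with a median of 0.51, but 24 h replicate 2 reversed the list: its summed level was 45740 CPM against 5643 to 6275 at 48 h and 4302 and 4370 in the other 24 h libraries, and the median with all 6 libraries was -2.03.

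Hypoxia and glycolysis genes varied within the groups. None of 18 was called by edgeR, though 16 were fitted below 0 and the median was -0.77. Their summed level was 6398, 3912 and 6124 CPM at 48 h and 9538 and 7075 at 24 h, with 2572 in 24 h replicate 2. In 48 h replicate 2 it was low, as it was for Ndrg1 (5.25 CPM against 68.9 and 39.7 in the other 48 h libraries) and Egln3 (11.3 against 66.9 and 56.2), an oxygen sensor induced by hypoxia. Without that library edgeR called 4 of the 18 lower, without 48 h replicate 1 it called 1, and DESeq2 on the 5 libraries called 6.

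**Figure D4:**
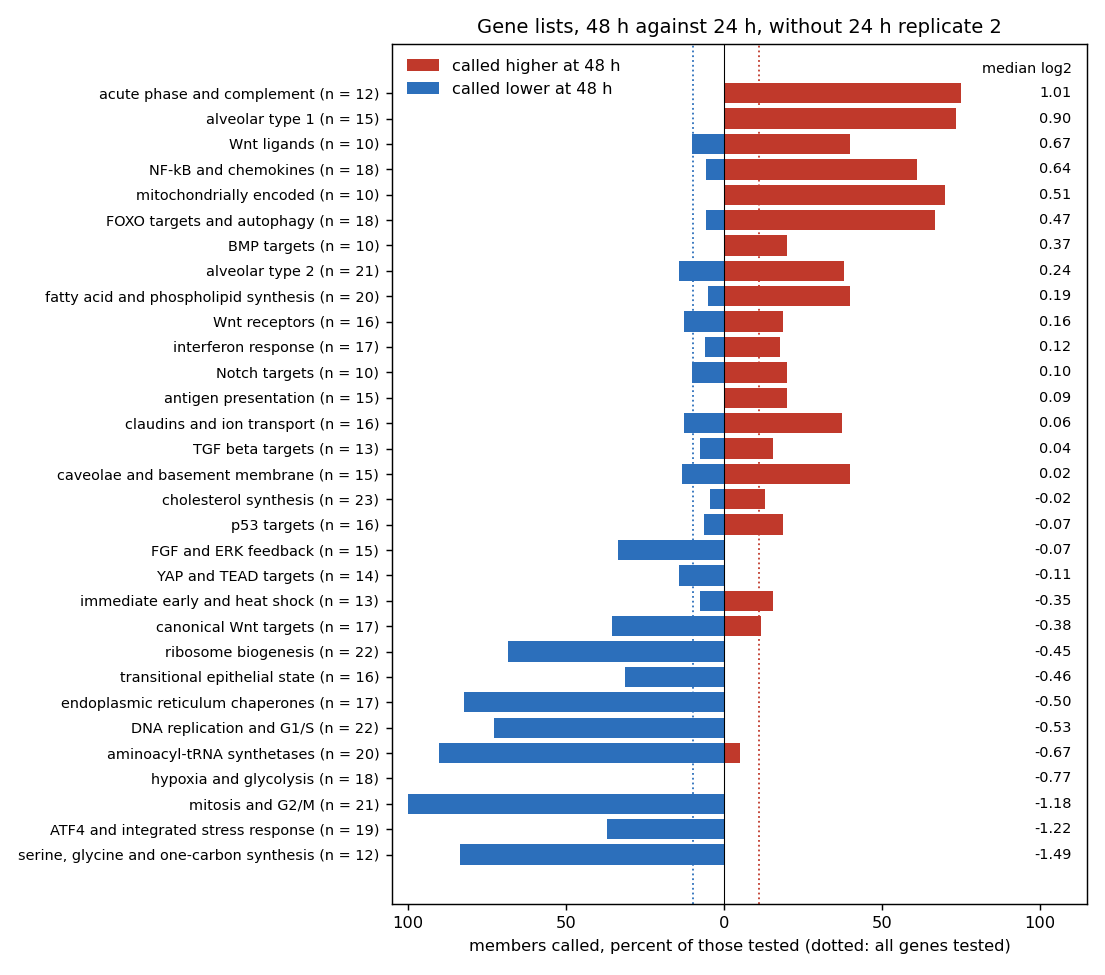
Share of tested members called higher (red, to the right) and lower (blue, to the left) at 48 h for the gene lists with at least 10 members tested, ordered by median log2 fold change, which is printed at the right. Dotted lines mark the shares over all genes tested, 11% higher and 9.7% lower; mitosis and G2/M genes reach 21 of 21 lower.

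Beyond the lists, the genes with the largest rises among those averaging 2 or more in log2 CPM and showing no overlap between the 5 libraries were Retnla, Sec14l3, Hp, Abca1, Mme, Itih4, Ces1d, Kcnj13, Cyp2b10, Chst4, Tuba8 and Elfn1. Retnla, a secreted resistin-like protein, had 31.6, 16.3 and 28.0 CPM at 48 h and 0.724 and 1.15 at 24 h, but 69.3 in 24 h replicate 2 (log2 4.77 ± 0.43 without it, edgeR adjusted p = 0.00148, and 0.10 with it). Sec14l3, a lipid-binding protein, had 78.2, 127 and 65.5 CPM at 48 h, 3.03 and 4.92 at 24 h and 9.86 in 24 h replicate 2. Its log2 fold change was 4.52 ± 0.51 (adjusted p = 0.0130), and its call was lost in 3 of the 5 omissions of 1 library (highest adjusted p = 0.109). Abca1, a cholesterol exporter, had 11.7, 8.84 and 6.55 CPM at 48 h and 0.918 and 0.890 at 24 h, with no count in 24 h replicate 2 (log2 3.35 ± 0.29, adjusted p = 4.40e-05). In the 14-library fit its adjusted p was 0.0672.

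Cyp2b10, a cytochrome P450, had 40.4, 45.5 and 33.8 CPM at 48 h and 6.01 and 7.28 at 24 h, with 19.7 in 24 h replicate 2 (log2 2.61 ± 0.15, edgeR adjusted p = 4.07e-06). Ces1d, a carboxylesterase, averaged 505 ± 78.8 CPM at 48 h and 74.6 ± 13.9 at 24 h, with 393 in 24 h replicate 2. Cyp2f2, an enzyme typical of club cells, averaged 573 ± 69.1 and 135 ± 22.1 CPM, with 400 in that library. Of 13 club and secretory markers, Hp and Cyp2f2 were the 2 called higher among 7 tested. The summed level of the list was 1115 to 1231 CPM at 48 h, 196 and 222 in 24 h replicates 1 and 3, and 1863 in 24 h replicate 2. The defining club cell marker Scgb1a1 stayed at or below 0.947 CPM in the 5 libraries, Bpifb1 and Cyp2a5 had no count in the 6, and Reg3g had none in the 5.

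The 12 largest falls were Tmem132c, Ctnnd2, Bhlha15, Ly6a, Phgdh, Nr1d1, Tubb6, Mthfd2, Steap1, Car2, Susd3 and Aldh1l2. Tmem132c, a transmembrane protein, had 0.656, 0.415 and 0.363 CPM at 48 h and 12.3 and 7.88 at 24 h, with no count in 24 h replicate 2 (log2 -4.34 ± 0.29, edgeR adjusted p = 9.00e-06). Ctnnd2, a delta-catenin of cell junctions, had 3.38, 5.31 and 3.88 CPM at 48 h and 27.4 and 32.6 at 24 h, with 0.881 in 24 h replicate 2 (log2 -2.82 ± 0.18, adjusted p = 8.26e-06). In the CHIR libraries Tmem132c stood at 6.84, 23.8 and 0.846 CPM and Ctnnd2 at 16.3, 60.5 and 4.37 CPM, given side by side without a test. Nr1d1, a repressor of the circadian clock, had 9.98, 9.70 and 8.84 CPM at 48 h and 49.7 and 34.7 at 24 h, with 13.7 in 24 h replicate 2 (log2 -2.12 ± 0.15, adjusted p = 1.73e-05). Car2, a carbonic anhydrase, averaged 29.9 ± 4.14 and 110 ± 8.67 CPM, with 58.3 in that library. Steap1, a membrane protein, averaged 2.47 ± 0.242 and 9.25 ± 0.649 CPM, with 6.17 there. Both were called in the 17-library fit.

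On GRCm38 with GENCODE M21, the genes that follow are protein-coding, and the values count reads over their exons. Asns spans chr6:7675169-7693254, Phgdh chr3:98313170-98339990, Cdc20 chr4:118432901-118437352, Ager chr17:34597862-34600936 and Hopx chr5:77086988-77115121. Chil1 spans chr1:134182176-134190181, Hp chr8:109575128-109579172, Itih4 chr14:30886476-30902353, Axin2 chr11:108920349-108950783, Wnt3a chr11:59248033-59290752 and Tmem132c chr5:127241808-127565793.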

How the data were processed

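RNA was isolated with a column kit and 0.1 µg of total RNA went into a stranded total RNA library preparation, per the labels' protocols. The authors deposited whole-number gene counts and RPKM values per library, per the file headers. The deposited counts are not normalised. The deposited RPKM values served only to recover each library total. GSNAP and GRCm38 are named in the submitters' processing notes; the sources used here give no versions, no counting program and no word on strand, so antisense and overlapping genes were not told apart. Of 52636 gene identifiers, 52403 (99.6%) matched a GENCODE M21 symbol.

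Counts were filtered with filterByExpr, scaled by TMM and tested with edgeR 4.0.16 (robust glmQLFit, glmQLFTest) in R 4.3.3, on the 6 libraries and on 5 without 24 h replicate 2, with Benjamini-Hochberg adjusted p under 0.05 over all genes tested. SE is the log2 fold change over the square root of F. CPM use TMM factors over all 18 libraries. The test was checked on simulated counts drawn from the model it fits. Such counts hold no library that stands apart, so the check does not bear on 24 h replicate 2. Alternatives used DESeq2 1.42.0, limma 3.58.1 voom, other scalings, filters and libraries. Libraries of a group differed by more than sampling noise, the chi-square over its degrees of freedom being 7.08 or more.

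Members and the 39 gene lists were chosen with earlier results of these data known. Genes named were the 12 largest rises and 12 largest falls among called genes that averaged 2 or more in log2 CPM, did not overlap and had no provisional symbol, up to 4 called members per list by smallest p, and always Axin2, Lgr5, Nkd1, Wnt3a, Sftpc, Hopx, Ager, Mki67, Asns, Chil1, Cxcl5, Itih4 and Mettl1. Other genes were named after their values were seen, among them Atf4, Trib3, Chac1, Slc7a11, Qars, Gars, Tars, Pycr1, Ctsh, Lyz1, Lyz2, Scnn1g, Ndrg1, Egln3, Fzd5, Fzd6, Xist, Ddx3y, Reg3g and Scgb1a1.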

Additional observations from a re-analysis of the deposited data

How the results depend on the processing

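With all 6 libraries the count of genes called was 0 by edgeR, 271 with DESeq2, 8 with all 18 libraries in 1 fit and 2901 with voom and quality weights; leaving out 1 library gave 0 to 3181, the upper value being without 24 h replicate 2. Without that library the count was 3181, 21 with all groups in 1 fit, 330 against a fold of 1.5, and 1980 to 2804 when 1 more library was left out. The replicate number as a block gave 0 and 3457 calls, and in the 5 libraries it called 14 of 18 hypoxia and glycolysis genes lower and 1 higher, against 0 without it. Under that block 48 h replicate 2 has no 24 h partner in the 5 libraries, so it adds nothing to the fitted change. Whether the numbers pair the libraries is not stated. Same-numbered libraries deviated from their group means with correlations of 0.073, 0.056 and 0.014 in the 6 libraries. These values cannot decide it, because 24 h replicate 2 weighs on the 24 h means. In the 5 libraries, the difference between replicates 1 and 3 at 48 h correlated at 0.040 with that at 24 h. With all 6 libraries, the log2 change of Sftpc turned from -0.67 to 0.18 with voom and quality weights, and ran from -0.96 to 0.24 over the omissions, the highest without 24 h replicate 2. The cause was not tested. Of the 134 named genes called, 109 were called in each of the 5 omissions, 122 in the 14-library fit, 65 against a fold of 1.5 and 9 in the 17-library fit. Genes below about 0.1 CPM have 3 counts or fewer per library, and with 2 libraries at 24 h the spread of that group rests on 1 difference.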

Other observations

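Clock, tubulin and liver X receptor genes were grouped after their values were seen, and are given as values of the 5 libraries without 24 h replicate 2, called by edgeR's quasi-likelihood test. Among 17 circadian clock genes, 7 were higher at 48 h and 1 lower, with a median log2 fold change of 0.16. Per2 and Per3, repressors of the clock, averaged 88.6 ± 12.9 and 35.9 ± 5.33 CPM (SD, n = 3) at 48 h and 43.1 ± 2.18 and 14.7 ± 3.68 CPM (n = 2) at 24 h. Tef, a clock output factor, averaged 112 ± 9.96 against 63.3 ± 5.88 CPM. Nr1d1 was the gene that fell, from 42.2 ± 10.6 to 9.51 ± 0.596 CPM. In 24 h replicate 2, Per3 and Cry2 stood at 140 and 177 CPM, above all 48 h libraries, whereas Nr1d1 stood at 13.7. The labels give no hour of collection, so time of day and time since withdrawal cannot be told apart.

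Of 11 tubulin genes, 6 were lower and 2 higher, with a median of -0.41. Tubb6 averaged 62.0 ± 7.48 CPM at 48 h and 250 ± 0.121 at 24 h, and Tubb5 180 ± 22.8 and 282 ± 1.25. In 24 h replicate 2, Tubb6 and Tubb5 stood at 3.59 and 70.1 CPM, below all 48 h libraries. Tuba8 went the other way, with 13.4 ± 2.99 against 2.58 ± 0.0163 CPM, and 5.99 in 24 h replicate 2. Tubulin genes have near-identical copies, so their counts are uncertain. Of 8 liver X receptor targets tested (of 9 listed), 6 were higher (Abca1, Mylip, Smpdl3a, Nr1h3, Scd1 and Srebf1) and none lower, with a median of 0.80. Mylip, which marks lipoprotein receptors for degradation, averaged 17.1 ± 1.85 CPM at 48 h and 8.12 ± 2.07 at 24 h, with 0.0705 in 24 h replicate 2. Abca1, Scd1, Smpdl3a and Srebf1 also lay below all 48 h libraries there. Nr1h3 averaged 6.17 ± 0.766 CPM at 48 h and 3.82 ± 0.922 at 24 h, but stood at 31.1 in 24 h replicate 2, above all 48 h libraries.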
